A study of Mus musculus with 4 samples.

Results

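The genes described here are those of the condensin complexes, of topoisomerase II alpha and of the proliferation marker Ki-67, followed in regulatory T cells (Treg) of mice given an antibody that stimulates death receptor 3 (DR3) or a control antibody. They were chosen by symbol, as probe sets that the platform annotation assigns to exactly 1 gene, and a gene with several such probe sets would have been represented by the brightest. Of 10 listed genes 9 had such a probe set, each just 1, out of 22180 genes measured this way. The remaining gene, Ncapg, was found only on a probe set listed for both Ncapg and Lcorl.

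There were 4 Affymetrix arrays, 2 of cells from mice injected with agonistic anti-DR3 and 2 of cells from mice injected with an isotype control antibody. All mice carried the strain label Foxp3Luci-DTR-4(B6 Albino), and in both groups the CD4-positive cells with green fluorescence from the Foxp3 reporter were sorted 4 days after injection into the peritoneum. The labels give no age for the mice, no organ for the cells and nothing on pooling of animals. Whether the replicates were separate animals is not stated either, so the p-values refer to the spread of these arrays, and that spread may be technical. The values are intensities after robust multi-array average (RMA), and levels and differences below are on the log2 scale. Array medians over all probe sets were 5.33 to 5.39, and a gene was tested if it exceeded that median on 2 or more arrays, which 12114 genes did.

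Condensins are ring-shaped protein complexes that fold the chromatin of a dividing cell into compact chromosomes. Condensin I and condensin II share the ATPase subunits SMC2 and SMC4 and differ in the other 3 subunits, a kleisin that closes the ring (NCAPH or NCAPH2) and a pair of HEAT repeat proteins (NCAPD2 and NCAPG, or NCAPD3 and NCAPG2). Condensin II is nuclear through the cell cycle, whereas condensin I reaches the chromosomes once the nuclear envelope has broken down. Topoisomerase II alpha, made from Top2a, passes one DNA duplex through another and so disentangles sister chromatids. Ki-67, made from Mki67, coats the surface of mitotic chromosomes and keeps them apart, and is widely used to mark cycling T cells.

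After anti-DR3, 5 of the 9 measured genes rose and 0 fell in limma (adjusted p under 0.05 over all genes tested). They were Mki67, Top2a, both measured subunits of condensin I (Ncaph and Ncapd2) and 1 of 3 subunits of condensin II (Ncapg2). The shared subunit genes Smc2 and Smc4 and the condensin II genes Ncapd3 and Ncaph2 did not pass. Among all genes tested 5.96% passed, 4.49% as higher and 1.47% as lower. With each array centred on its median over the genes tested, as in all such fits below, the 544 higher and 178 lower calls became 348 and 243. All 9 genes passed the filter on dim genes, but Ncapg2 passed it through the anti-DR3 arrays alone, since it lay under the median on both control arrays; without it 4 of 8 rose. In a sorted population, a larger share of cells making an RNA and more of it per cell cannot be told apart. With 2 arrays against 2, an exact permutation test of any single gene cannot go below p = 0.333, so the calls rest on limma's spread borrowed across genes.

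**Figure D1:**
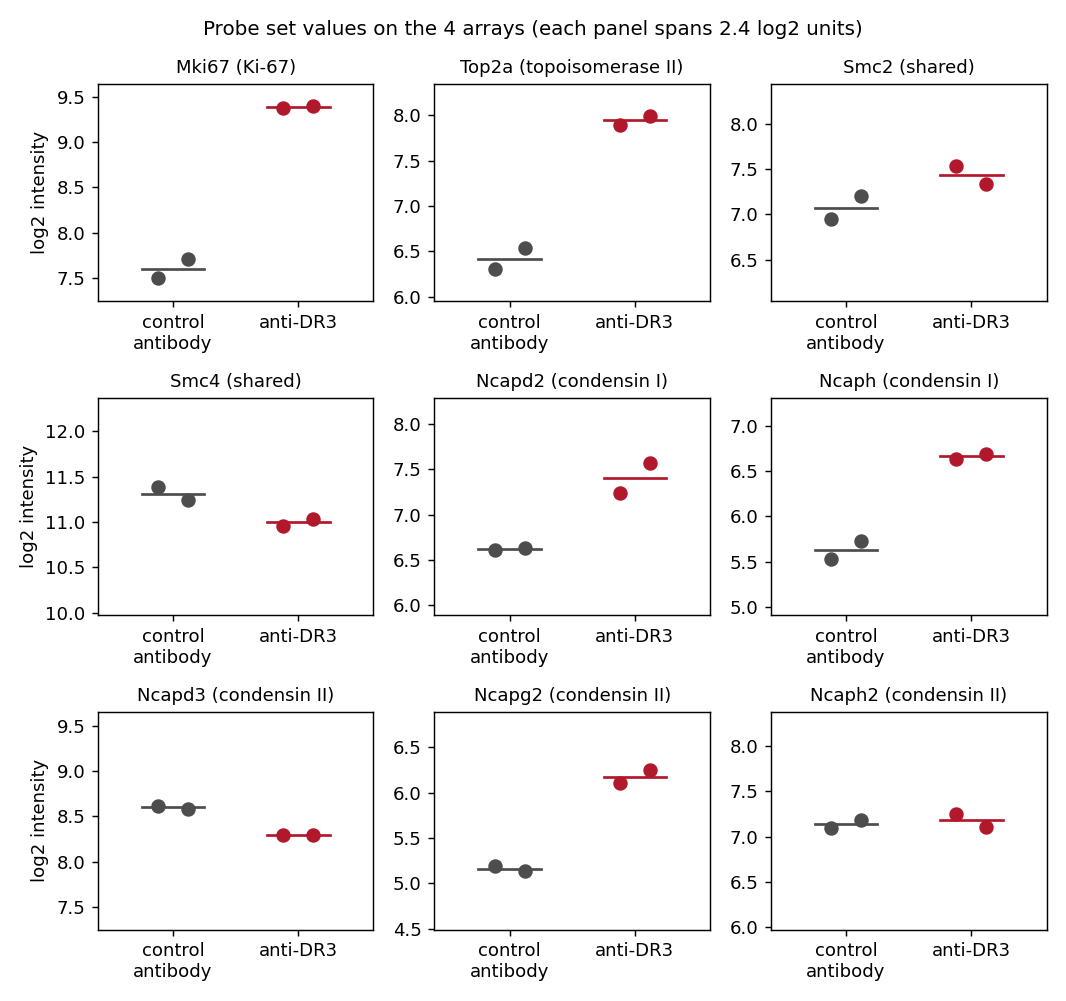
Log2 intensity of each measured gene on the 4 arrays, with control antibody arrays in grey and anti-DR3 arrays in red; points are single arrays and the short lines are group means. Every panel spans the same number of log2 units, so the vertical gaps can be compared between panels while the absolute heights, which depend on each probe set, cannot. Mki67 and Top2a show the widest gaps, Smc4 and Ncapd3 lie lower on both anti-DR3 arrays, and the groups of Ncaph2 overlap.

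Mki67 had log2 intensities of 9.38 and 9.39 on the anti-DR3 arrays against 7.50 and 7.71 on the control arrays. Both anti-DR3 arrays lay far above both control arrays, and the gap of 1.67 between the nearest arrays of the groups exceeded the larger replicate gap of 0.22. The rise was 1.78 ± 0.099 (SE, n = 2 arrays per group), or 3.44-fold, with adjusted p = 0.00606 in limma. This placed Mki67 at percentile 99.98 of the differences of all genes tested.

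Top2a had log2 intensities of 7.896 and 7.995 on the anti-DR3 arrays against 6.30 and 6.53 on the control arrays. The groups were again well apart, by 1.36 at their nearest arrays against replicate gaps of 0.099 and 0.23. Top2a rose by 1.53 ± 0.105 (SE, n = 2 arrays per group), or 2.88-fold (adjusted p = 0.00626, limma). Top2b, the gene of the beta form of topoisomerase II, which resting cells also make, gave 9.29 and 9.32 on the anti-DR3 arrays against 9.25 and 9.40 on the control arrays. It was singled out after its values were seen, and its difference was -0.02 ± 0.088 (adjusted p = 0.909, limma) and ran from -0.094 to 0.052 as single arrays were left out.

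Both measured subunits of condensin I rose. Ncaph, the kleisin of condensin I, had log2 intensities of 6.64 and 6.68 on the anti-DR3 arrays against 5.53 and 5.73 on the control arrays, and rose by 1.03 ± 0.096 (SE, n = 2 arrays per group), or 2.04-fold (adjusted p = 0.0102, limma). Ncapd2, its HEAT repeat subunit, had 7.24 and 7.57 on the anti-DR3 arrays against 6.61 and 6.63 on the control arrays, and rose by 0.79 ± 0.12, or 1.72-fold (adjusted p = 0.0279, limma). Both genes were higher on each anti-DR3 array than on each control array. The anti-DR3 arrays of Ncapd2 differed from each other by 0.34, the widest replicate gap among the 9 genes, and anti-DR3 replicate 2 was the higher.

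Of the 3 subunits of condensin II, 1 rose and 2 did not pass. Ncapg2, a HEAT repeat subunit, had log2 intensities of 6.10 and 6.25 on the anti-DR3 arrays against 5.19 and 5.13 on the control arrays, and rose by 1.01 ± 0.089 (SE, n = 2 arrays per group), or 2.02-fold (adjusted p = 0.00988, limma). Both control values lay below the array medians. Ncapd3, the other HEAT repeat subunit, had 8.29 on both anti-DR3 arrays and 8.61 and 8.58 on the control arrays. Both anti-DR3 arrays were thus the lower, by 0.29 at the nearest, but the difference of -0.31 ± 0.077 did not pass (adjusted p = 0.0736, limma). Ncaph2, the kleisin of condensin II, had 7.25 and 7.11 on the anti-DR3 arrays against 7.10 and 7.19 on the control arrays. These groups overlapped, and the difference of 0.04 ± 0.091 (adjusted p = 0.844, limma) turned to -0.023 when arrays were centred on their median.

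The shared subunits, which both complexes need, also differed in sign. Smc4 had log2 intensities of 10.95 and 11.04 on the anti-DR3 arrays against 11.38 and 11.24 on the control arrays. Smc2, its ATPase partner, had 7.54 and 7.34 on the anti-DR3 arrays against 6.95 and 7.20 on the control arrays. The groups of neither gene overlapped, with Smc4 the lower and Smc2 the higher after anti-DR3. The differences of -0.32 ± 0.089 for Smc4 (adjusted p = 0.0941, limma) and of 0.37 ± 0.12 for Smc2 (adjusted p = 0.128, limma) did not pass. For Smc4 and Ncapd3 the outcome depended on the variance model, since a trended robust prior gave adjusted p = 0.0195 and 0.0198 in limma, within ranges of 0.0195 to 0.320 and 0.0198 to 0.286 over all alternatives.

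**Figure D2:**
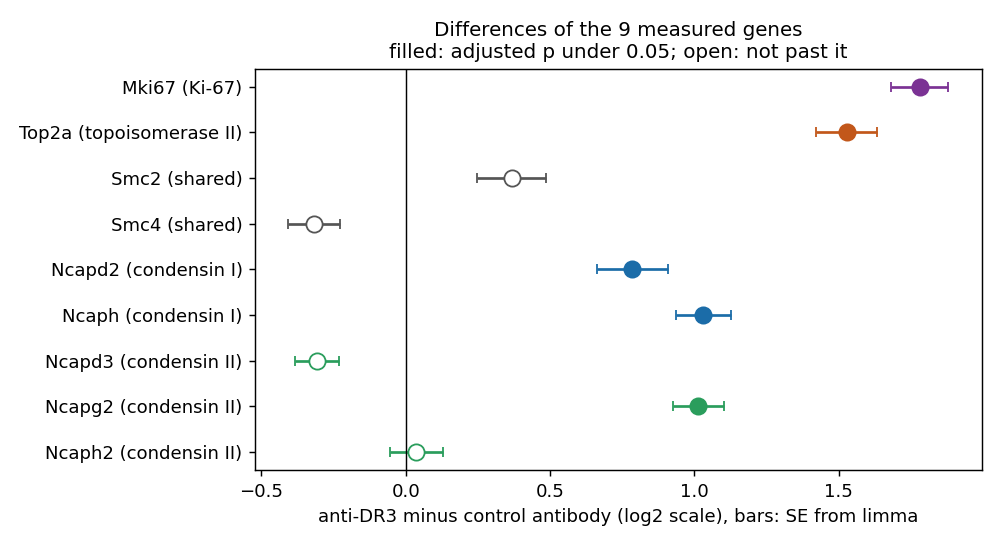
Difference of each measured gene, as log2 of anti-DR3 over control antibody, with its standard error from limma (n = 2 arrays per group); filled points passed an adjusted p of 0.05 and open points did not. Mki67 (1.78) and Top2a (1.53) lie to the right of all condensin genes, Ncaph, Ncapg2 and Ncapd2 lie between 0.79 and 1.03, and Smc4 (-0.32) and Ncapd3 (-0.31) lie left of 0.

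Set side by side as averages of gene-centred log2 values, the condensin I subunits stood at 0.36 and 0.55 on the anti-DR3 arrays and at -0.51 and -0.40 on the control arrays. The condensin II subunits stood at 0.12 on both anti-DR3 arrays and at -0.12 on both control arrays, and the shared subunits at 0.04 and -0.02 against -0.04 and 0.02. The mean difference was thus 0.91 for 2 condensin I genes, 0.25 for 3 condensin II genes and 0.02 for the 2 shared genes. The condensin II average joins a gene at 1.01 with genes at 0.04 and -0.31, so it describes none of them, and without Ncapg2, which entered the test through the anti-DR3 arrays alone, it would be -0.14. No test was made of these averages. The groups did not overlap for 8 of the 9 genes, 6 of them higher and 2 lower after anti-DR3, where 56.1% of all genes tested did not overlap, 31.6% higher and 24.6% lower.

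The calls depended on each of the arrays. Without anti-DR3 replicate 1 limma called Mki67 and Top2a alone among the 9 genes, and without anti-DR3 replicate 2 it called 0 of them, where all genes tested gave 33 and 0 calls (2234 and 1967 genes had an unadjusted p under 0.05). Without control antibody replicate 1 the differences of Mki67, Top2a, Ncaph and Ncapg2 were 1.67, 1.41, 0.93 and 1.04. Without control antibody replicate 2 they were 1.89, 1.64, 1.13 and 0.98. Ncapd2 was called in 0 of these 4 fits, and its difference ran from 0.62 without anti-DR3 replicate 2 to 0.95 without anti-DR3 replicate 1. The sizes moved less than the calls, with Mki67 between 1.67 and 1.89, Top2a between 1.41 and 1.64, Ncaph between 0.93 and 1.13 and Ncapg2 between 0.94 and 1.09. With no filter on dim genes, which raises the number of genes in the adjustment to 22180, Mki67 and Top2a were still called, and with the ordinary linear model 0 were (2087 genes had an unadjusted p under 0.05).

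**Figure D3:**
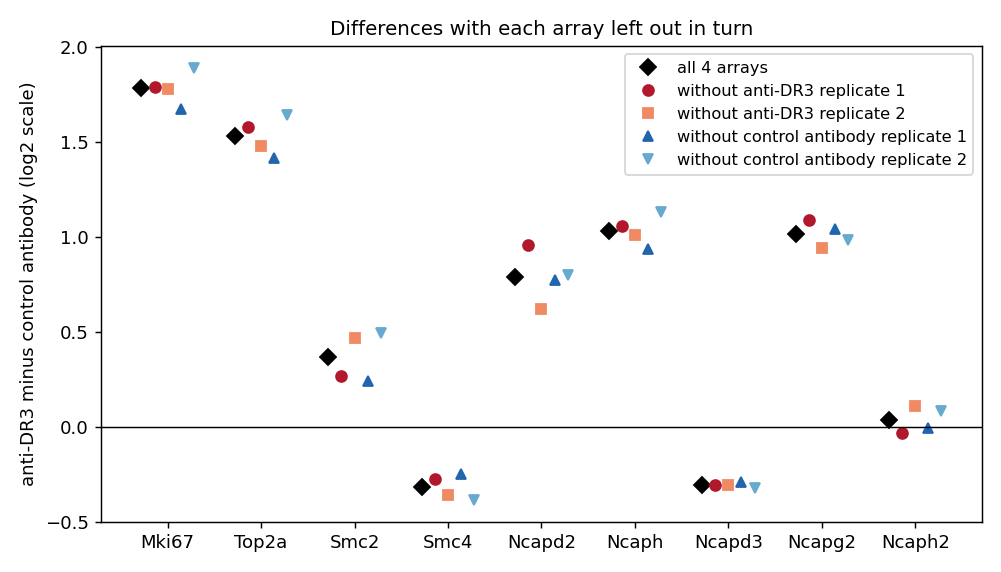
Difference of each measured gene (log2 of anti-DR3 over control antibody) from all 4 arrays (black diamonds) and from the sets of 3 that omit 1 array (coloured symbols). The 5 genes that rose stay between 0.62 and 1.89, Smc4 and Ncapd3 stay under 0, and Ncaph2 lies on both sides of 0.

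The upstream DNA of these genes is shown because promoters of mitotic genes are known for a pair of elements, the cell cycle genes homology region (CHR), bound by the MuvB core of the DREAM and B-MYB complexes, and CCAAT boxes, bound by NF-Y. The sequences are those of RefSeq, build GRCm38.p6, and run 250 bases up to the annotated gene start. Of the 10 listed genes 9 matched, 1 of them (Ncapd3) with 2 start sites. Smc4, which did not pass and was lower after anti-DR3, had no window, while Ncapg, which was not tested, had 1. Capitals mark the letters TTTGAA or TTCGAA (CHR) and CCAAT, on either strand, so that TTCAAA and ATTGG are the same letters read from the other strand, and no capital runs overlap. Shown are the promoters of the genes with the widest differences, Mki67 (chr7:135716380-135716629, minus strand) and Top2a (chr11:99024190-99024439, minus strand), and of the kleisins of condensin I and II, Ncaph (chr2:127133955-127134204, minus strand) and Ncaph2 (chr15:89355469-89355718, plus strand).
Mki67: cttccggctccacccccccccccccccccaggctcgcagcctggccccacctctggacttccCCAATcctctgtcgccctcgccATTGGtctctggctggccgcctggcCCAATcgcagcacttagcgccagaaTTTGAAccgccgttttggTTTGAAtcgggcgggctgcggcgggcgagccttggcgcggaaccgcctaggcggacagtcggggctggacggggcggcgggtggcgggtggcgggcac
Top2a: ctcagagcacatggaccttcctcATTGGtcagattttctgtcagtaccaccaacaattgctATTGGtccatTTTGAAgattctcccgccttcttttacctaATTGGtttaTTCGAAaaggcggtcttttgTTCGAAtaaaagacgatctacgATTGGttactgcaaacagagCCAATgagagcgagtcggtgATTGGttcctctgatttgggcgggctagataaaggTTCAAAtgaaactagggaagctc
Ncaph: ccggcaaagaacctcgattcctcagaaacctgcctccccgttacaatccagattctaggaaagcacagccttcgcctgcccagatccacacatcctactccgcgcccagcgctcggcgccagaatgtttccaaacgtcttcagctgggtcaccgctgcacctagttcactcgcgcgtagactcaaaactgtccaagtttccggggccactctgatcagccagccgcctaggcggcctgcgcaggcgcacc
Ncaph2: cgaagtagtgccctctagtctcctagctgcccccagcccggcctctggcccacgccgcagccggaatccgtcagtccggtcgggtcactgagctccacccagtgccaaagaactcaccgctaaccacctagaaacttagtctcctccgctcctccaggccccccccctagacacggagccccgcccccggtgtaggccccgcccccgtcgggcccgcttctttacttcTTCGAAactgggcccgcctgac

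The Top2a window held 4 CHR matches and 6 CCAAT matches, with the CHR match nearest to the start ending 18 bases upstream of it. The Mki67 window held 2 CHR matches and 3 CCAAT matches. The window of Ncaph, which rose, held 0 of either, and that of Ncaph2, which did not pass, held 1 CHR match that ended 17 bases upstream of the start. In the windows not printed, Ncapd2 had 1 CHR and 3 CCAAT matches, Ncapg2 had 1 CHR match 13 bases upstream, and Smc2 and Ncapg had 1 of each. Ncapd3 had 0 of either at its first start site and 1 CHR match at the other. Of the 10 windows 8 held a CHR match, 5 a CCAAT match and 5 both, where 17.1%, 33.8% and 6.02% of 32851 promoter windows of this length did. Letters of E2F sites (TTCCCGC or TTGGCGC, either strand) stood in 4 of the 10 windows and in 5.62% of all. These matches describe letters in a window, not binding, and genes that rose and genes that did not pass both held them.

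Among genes that regulate condensin or share the chromosome surface with Ki-67, limma called 4 of the 13 measured as higher and 0 as lower. This share of 30.8% stood beside 5.96% of all genes tested, 4.49% as higher and 1.47% as lower. The median difference was 0.29 against 0.01 for all genes tested, and single genes ran from -0.26 to 1.01. The other 9 genes did not pass. Groups did not overlap for 6 genes as higher and 3 as lower, against 31.6% and 24.6% of all genes tested. Plk1, a mitotic kinase that phosphorylates condensin II, had log2 intensities of 6.98 and 6.80 on the anti-DR3 arrays against 5.961 and 5.997 on the control arrays and rose 1.88-fold (adjusted p = 0.0106, limma). Aurkb, the kinase of the chromosomal passenger complex, rose by 0.88 (adjusted p = 0.0211, limma). Kif4, a chromosome-bound kinesin that works with condensin I, rose by 1.01 (adjusted p = 0.0317, limma), and Cdca2, the gene of the phosphatase subunit Repo-Man, by 0.62 (adjusted p = 0.0344, limma). The call of Cdca2 ended when arrays were centred on their median (adjusted p = 0.0558, within 0.0207 to 0.28 over all alternatives, limma). Kif4 and Cdca2 lay under the array median on both control arrays and so entered the test through the anti-DR3 arrays. Over the other 11 genes 2 rose, and the median difference was 0.047. Each of these 4 genes was called in 1 of the 4 fits that left out an array.

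Other complexes are built on SMC proteins too. Of 15 tested genes of cohesin, which holds sister chromatids together, and its regulators limma called 1 as higher and 0 as lower, and the median difference was -0.05 (-0.11 without Sgo1 and Espl1, which entered through the anti-DR3 arrays alone). This share of 6.67% called was near the 5.96% of all genes tested. The rise was Cdca5, the gene of sororin, which protects cohesion from S phase on, with 6.34 and 6.26 on the anti-DR3 arrays against 5.88 and 5.71 on the control arrays (0.50 ± 0.094, adjusted p = 0.0407, limma), but it did not pass with arrays centred on their median (adjusted p = 0.0527, within 0.0279 to 0.269 over all alternatives, limma). Of the cohesin core genes Smc1a gave -0.21, Stag1 -0.19, Smc3 -0.16, Stag2 -0.11 and Rad21 0.01. The loader gene Nipbl gave -0.20, and none of these genes passed the test. Esco2, the 1 measured gene of this list left out as dim, had 5.28 and 5.34 on the anti-DR3 arrays against 4.48 and 4.41 on the control arrays. Its difference of 0.87 was not tested. Of 7 genes of the SMC5/6 complex, which acts in DNA repair, 0 rose and 1 fell in limma, around a median difference of -0.14, and a single call among so few genes does not set the list apart from that share. The fall was Smc6, by 0.45 ± 0.082 (adjusted p = 0.0385, limma), with 9.27 and 9.19 on the anti-DR3 arrays against 9.71 and 9.64 on the control arrays. Its partner Smc5 gave -0.14, and the subunit genes Eid3 and Nsmce2 0.19 and 0.24. Limma called neither Cdca5 nor Smc6 when any 1 array was left out.

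Among 8 genes listed as other topoisomerases and their repair enzymes limma called 0. The list also holds Topbp1, which is neither. Of the 8 genes 1 had an unadjusted p under 0.05 in limma (12.5%, against 26.1% of all genes tested), and the median difference was -0.08. With 5.96% of all genes called, 0 of 8 is near the background. Top1, which relaxes DNA ahead of polymerases, gave 0.20, the mitochondrial enzyme gene Top1mt -0.20, Top3a -0.22, and Tdp1, which clears stalled topoisomerase I from DNA, -0.11.

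**Figure D4:**
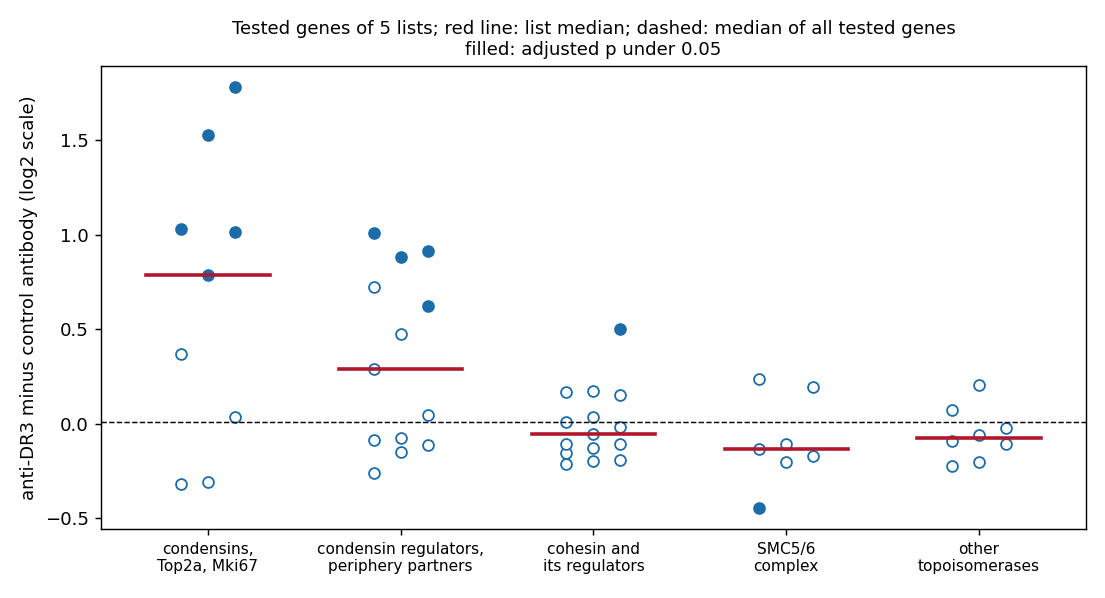
Differences of the tested genes of 5 lists as log2 of anti-DR3 over control antibody; each point is a gene, filled where adjusted p was under 0.05, the red line is the list's median and the dashed line the median of all genes tested (0.01). The condensin, Top2a and Mki67 genes reach 1.78 and have a median of 0.79, their regulators and partners have a median of 0.29 (0.58 and 0.047 without the genes that entered the test through the anti-DR3 arrays alone), and cohesin, SMC5/6 and the other topoisomerases have medians of -0.05, -0.14 and -0.08.

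The genes whose gene-centred values over the 4 arrays lay nearest to those of Mki67, by Euclidean distance among all genes tested other than the 9, were Ccna2 (0.13), Kif11 (0.20), Cxcl10 (0.22), Nuf2 (0.23) and S100a6 (0.26). Ccna2 is a cyclin of S phase and mitosis, Kif11 a spindle motor and Nuf2 a kinetochore gene, while Cxcl10 is an interferon-induced chemokine and S100a6 a calcium-binding protein gene. Top2a lay at a distance of 0.26 from Mki67, followed by Ncaph at 0.75 and Ncapg2 at 0.80, and Smc4 lay at 2.11. Ccna2 and Nuf2 lay under the array median on both control arrays. With 4 arrays, such a ranking mostly orders genes by the size of their difference.

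The arrays carried the markers of the sorted cells. All 6 listed Treg and CD4 T cell genes had log2 intensities from 10.3 to 12.4, with Foxp3 at 11.9 on both anti-DR3 arrays. In limma 1 of the 6 rose (Ikzf2, by 0.58, adjusted p = 0.0193) and 1 fell (Il2ra, by 0.49, adjusted p = 0.0441). Among all genes tested 4.49% rose and 1.47% fell. Neither the call of Ikzf2 nor that of Il2ra held when any 1 array was left out. Of 18 measured markers of other cell types 13 were dim, among them Cd8a, Cd79a, Ms4a1, Pax5 and Adgre1. The 5 tested were Cd8b1, Cd79b, Csf1r, Lyz2 and Eomes, all above the array median on all 4 arrays. Of these 5, 2 rose in limma, where 4.49% of all genes tested rose. They were Cd8b1, by 0.49 (adjusted p = 0.0416, limma), and Csf1r, by 0.42 (adjusted p = 0.0387, limma), and neither call held when any 1 array was left out. With arrays centred on their median neither passed in limma (adjusted p = 0.0614 and 0.0627, within 0.0130 to 0.269 and 0.0256 to 0.213 over all alternatives), and Il2ra did not after quantile normalization (0.0565, within 0.00549 to 0.274). The log2 of the summed intensities was 7.80 and 7.90 against 7.43 and 7.40 for CD8 T cell markers, 7.50 and 7.52 against 7.41 and 7.38 for B cell markers, and 7.75 and 7.90 against 7.54 and 7.74 for macrophage and monocyte markers (anti-DR3 against control antibody). For natural killer cell markers it was 6.85 and 6.86 against 6.97 and 6.72, for dendritic cell markers 6.81 and 6.70 against 6.70 and 6.66, and for Klf1, the single measured erythroid marker, 5.13 and 4.68 against 4.75 on both control arrays. Single markers of a list differed in direction. Cd8a, which was dim, gave 5.31 and 4.96 on the anti-DR3 arrays against 5.03 and 4.89 on the control arrays. Of the macrophage and monocyte markers beside Csf1r, Adgre1 (-0.34) and Fcgr1 (-0.32), both dim, were lower on both anti-DR3 arrays. Groups overlapped for Lyz2 (0.43) and for Cd14 (0.22), which was dim, and the control arrays of Lyz2 differed by 0.69. The part of all these markers in the differences above was not tested.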

How the data were processed

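RNA of sorted Treg was measured on 4 arrays, 2 after anti-DR3 and 2 after control antibody. The deposited values are intensities, with a row for each probe set. Per the submitters' processing notes they come from RMA (robust multi-array average); the sources used here name neither software version nor genome build. RMA corrects background, brings arrays to a common distribution and combines probes, so a shift common to all genes can be hidden. The values read as linear, and log2 was taken here. The number of arrays limits the precision.

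The platform annotation gives 1 symbol to 23521 of 41345 probe sets, several to 1814 and lists none for 16010. The brightest probe set stood for a gene, and 10066 of 22180 genes were left out as dim. The test was limma 3.58.1 under R 4.3.3 (lmFit, eBayes, two-sided) without a replicate block, Benjamini-Hochberg adjusted over 12114 genes, with 2 residual and 3.94 prior degrees of freedom. Folds are ratios computed from the deposited intensities as differences of mean log2 values. The code was tested on simulated data. Protein sequences were not used here. The text names all members, at most 4 genes of every other pathway list (those with the strongest moderated statistic) and the 5 genes nearest to Mki67. After their values were seen it also names Top2b, Topbp1, Esco2, the cohesin core genes Smc3, Stag2 and Rad21, and genes behind counts of 5 or fewer. Foxp3 and markers of other cell types, dim ones included, are named outside these rules. Members and lists were chosen with earlier results of these data known. Alternatives were the replicate block, leaving out each array, other filters and normalizations, other variance models and array weights, averaging of probe sets, and another threshold.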

Additional observations from a re-analysis of the deposited data

Results flagged for a closer look

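Probe sets listed for 2 genes at once were outside the comparison. Those below were flagged because both anti-DR3 arrays lay above both control arrays, so their direction is the rule of choice. Among all genes tested 31.6% had this pattern. The probe set listed for Ncapg, a HEAT repeat subunit of condensin I, and Lcorl had log2 intensities of 6.44 and 6.47 on the anti-DR3 arrays against 5.49 and 5.59 on the control arrays, a difference of 0.91. The probe sets listed for Top2a and Taf1d differed by 0.33 (8.23 and 8.44 against 8.07 and 7.94) and by 0.35 (9.14 and 9.24 against 8.95 and 8.74), where the probe set of Top2a alone differed by 1.53. These values belong to no single gene, and the differences were not tested.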

How the results depend on the processing

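The 9 genes gave 125 values under the alternatives, of which 100 had the same direction and call, 18 were no longer called, 4 became called and 3 changed direction. The replicate block, the filters, the variance models, array weights, averaging of probe sets and the other threshold left each difference as it was. Direction could thus change only when an array was left out, arrays were centred on the median or quantile normalization was used. The changes of direction were all of Ncaph2, to -0.023 with arrays centred on the median, -0.035 without anti-DR3 replicate 1 and -0.0076 without control antibody replicate 1, and with single arrays left out it ran from -0.035 to 0.11. Top2b ran from -0.094 to 0.052 in these fits. Leaving out single arrays, where the lone array is taken to vary as the other group does, limma called 0 to 4 of the 9 genes and 0 to 312 of all. No filter on dim genes gave 2 of the 9 and 14 of all, the ordinary linear model 0 and 0 (2087 of all had an unadjusted p under 0.05), a trended robust prior 7 and 1444, and an adjusted p under 0.10 gave 7 and 1689; Smc4 and Ncapd3 passed as lower in the latter pair, and the cause was not tested. The stricter filter removed Ncapg2. What the replicate numbers have in common is not stated, and the gaps between replicates correlated at r = 0.051 across genes, which with 2 pairs cannot show pairing. The replicate block gave 563 calls and called the same 5 genes of the 9; of the other named genes Smc6, Cd8b1 and Csf1r did not pass with it (limma adjusted p = 0.0536, 0.0578 and 0.0598, with differences as before).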
